A study of Mus musculus with 22 samples.

Results

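The 9 laminin chains described here are the genes Lama1 to Lama5 (α chains), Lamb1 to Lamb3 (β chains) and Lamc1 (a γ chain). They were chosen by symbol, as genes listed in each of the 3 deposited comparison tables, and all 9 were found among the 18632 genes that these tables share. The rule uses no measured value, although the chains were proposed with earlier results of these data known. For description they were placed in 3 groups of 3: embryonic chains (Lama1, Lamb1, Lamc1), epithelial chains (Lama3, Lama5, Lamb3) and mesenchymal chains (Lama2, Lama4, Lamb2). The cells were mouse pluripotent cells carrying Col2.3GFP, a transgene whose green fluorescence is driven by part of the type I collagen promoter and marks cells of the osteoblast lineage. The groups used were undifferentiated embryonic stem cells (ESC, 3 samples, passages 20 to 30), ESC-OB cultures differentiated from them for 35 to 40 days (3 samples, passages 20 to 30), cells sorted for the reporter from such cultures at the same days (sorted ESC-OB GFP+, 3 samples, no passage given), induced pluripotent stem cells (iPSC, 2 samples, passages 10 to 20) and iPSC-OB cultures of 35 to 40 days (2 samples, passages 10 to 20). Differentiation began with 6 days as embryoid bodies, with 0.1 µM retinoic acid added on day 3 and removed on day 5, and continued in osteogenesis medium. All 5 groups share the reporter, and the labels name no strain or further allele. The stem cells had been kept either on feeder cells from mouse embryos or without feeders, and the sources used here do not say which samples had feeders.

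Laminins are large trimers of 1 α, 1 β and 1 γ chain that cells secrete and that polymerise into the sheet on which basement membranes are built. The α chain carries the globular domains that bind integrins and dystroglycan, and β and γ chains complete the coiled coil without which the trimer is not secreted. The trimer of the α1, β1 and γ1 chains is the main laminin of early embryos and of parietal endoderm, α5 trimers support pluripotent cells and are widespread in epithelia, a trimer with the α3 and β3 chains anchors skin to its dermis, and α2 and α4 trimers lie around muscle, nerve, vessels and mesenchymal cells.

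The bases upstream of the start sites of 4 chains are shown first, because these chains cover the patterns described below: Lama5 was the leading α chain of stem cells, Lamb1 was among the abundant chains of the cultures, Lamb3 is an epithelial chain that rose, and Lama2 was almost unread in ESC. Promoters of 5 of the 9 chains (these 4 and Lamb2) were read from the RefSeq table (GRCm38.p6). Those of Lama1, Lama3, Lama4 and Lamc1 were not read, and nothing is said here about their sequence. Each sequence is the 250 bases before the start site, 5′ to 3′ on the gene's strand, and capitals mark a GC box (GGGCGG) or a CCAAT box (CCAAT) on either strand. Lama5 lies at chr2:180225860-180226109 (minus strand), Lamb1 at chr12:31265043-31265292 (plus strand), the first of 2 Lamb3 start sites at chr1:193301744-193301993 (plus strand) and Lama2 at chr10:27616943-27617192 (minus strand).
Lama5: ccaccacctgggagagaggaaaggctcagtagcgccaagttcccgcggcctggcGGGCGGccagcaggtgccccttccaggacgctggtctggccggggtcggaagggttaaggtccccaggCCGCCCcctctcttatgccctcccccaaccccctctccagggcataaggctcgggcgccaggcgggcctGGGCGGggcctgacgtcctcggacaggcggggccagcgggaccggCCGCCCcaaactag
Lamb1: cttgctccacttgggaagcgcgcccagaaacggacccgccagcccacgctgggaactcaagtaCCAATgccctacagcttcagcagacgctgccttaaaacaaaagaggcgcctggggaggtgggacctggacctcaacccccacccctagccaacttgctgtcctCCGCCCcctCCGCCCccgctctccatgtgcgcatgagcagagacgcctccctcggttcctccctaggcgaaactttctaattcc
Lamb3: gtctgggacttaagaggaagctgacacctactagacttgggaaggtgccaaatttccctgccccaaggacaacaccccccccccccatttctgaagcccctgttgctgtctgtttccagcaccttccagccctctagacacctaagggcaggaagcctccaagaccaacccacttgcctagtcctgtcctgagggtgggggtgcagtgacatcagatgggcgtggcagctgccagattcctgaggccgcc
Lama2: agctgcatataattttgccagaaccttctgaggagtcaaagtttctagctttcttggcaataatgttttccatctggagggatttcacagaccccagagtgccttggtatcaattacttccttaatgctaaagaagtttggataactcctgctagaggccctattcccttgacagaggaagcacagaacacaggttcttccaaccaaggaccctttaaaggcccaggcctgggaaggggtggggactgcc
The Lama5 window held 4 GC boxes and the Lamb1 window held 2 GC boxes and 1 CCAAT box, while the Lama2, Lamb2 and both Lamb3 windows held 0 of either. GC content was 72.4% for Lama5, 62.0% for Lamb1, 58.8% for the Lamb3 window shown, 47.2% for Lama2 and 43.6% for Lamb2, against a median of 52.4% over 32851 promoters. A GC box was present in 32.7% of these promoters and a CCAAT box in 33.8%, so a match of either kind is common. The TATA-like letters TATAAA, the AP-1 motif TGANTCA, the motifs of GATA factors (AGATAA or TGATAA), the nuclear receptor motif AGGTCA and the RUNX motif TGTGGT were also searched on both strands and none was found in these windows, which says only that the letters are not there. These motifs were present in 12.4%, 6.75%, 16.6%, 14.0% and 14.0% of all promoters, in that order. The E box CANNTG, found in 66.2% of promoters, had 1 to 3 matches in each window, and it is not marked in capitals.

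The files hold the authors' fold changes and no value for a single sample, so every level below is an estimate for a whole group. It was solved from the deposited mean and log2 changes, is given in CPM (counts scaled to a total of 1e+06) per kilobase of the longest protein-coding transcript, and carries no error. These levels rest on fold changes that were shrunk towards 0, so the level of a barely read gene is uncertain. Library depths read from the smallest deposited means, in units of 1e+06 counts, ran from 4.25 to 18.5 in ESC, 6.37 to 10.9 in ESC-OB, 21.2 to 28.5 in sorted ESC-OB GFP+, 9.91 to 12.4 on the iPSC side and 9.59 to 16.8 in iPSC-OB. For iPSC, 3 libraries were found when decoded this way, where the labels give 2, and taking 3 moved each laminin level by less than the SE of its log2 change. The iPSC table was normalised apart from the ESC tables, so levels in both are set side by side and only the changes are tested against each other. The labels do not say whether replicates were separate cultures, so p-values measure only the spread between these samples. Pluripotency markers fell, 6 of 6 in each comparison, from a summed 5371 CPM in ESC to 38.5 in ESC-OB and 29.5 in sorted cells, and from 2588 CPM in iPSC to 61.4 in iPSC-OB. The direction of all changes was read from Pou5f1, Nanog and Esrrb, which are among these markers. Their fall is therefore no independent check of the labels. In these bulk samples fewer cells of a type and less RNA per cell cannot be told apart.

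Laminin chains took a larger share of counts in the osteoblast cultures than in the stem cells, and most of that share was 3 genes. The shares in this paragraph are not divided by transcript length, and laminin transcripts are long. The 9 chains made up an estimated 0.114% of counts in ESC, 2.01% in ESC-OB and 0.738% in sorted ESC-OB GFP+, and 0.133% in iPSC against 2.33% in iPSC-OB. The embryonic chains alone accounted for 1.86% in ESC-OB and 2.24% in iPSC-OB. Epithelial chains stayed between 0.0454% and 0.0720% in all 5 groups, and mesenchymal chains went from 0.00405% to 0.0752% in ESC-OB and from 0.00416% to 0.0436% in iPSC-OB.

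**Figure D1:**
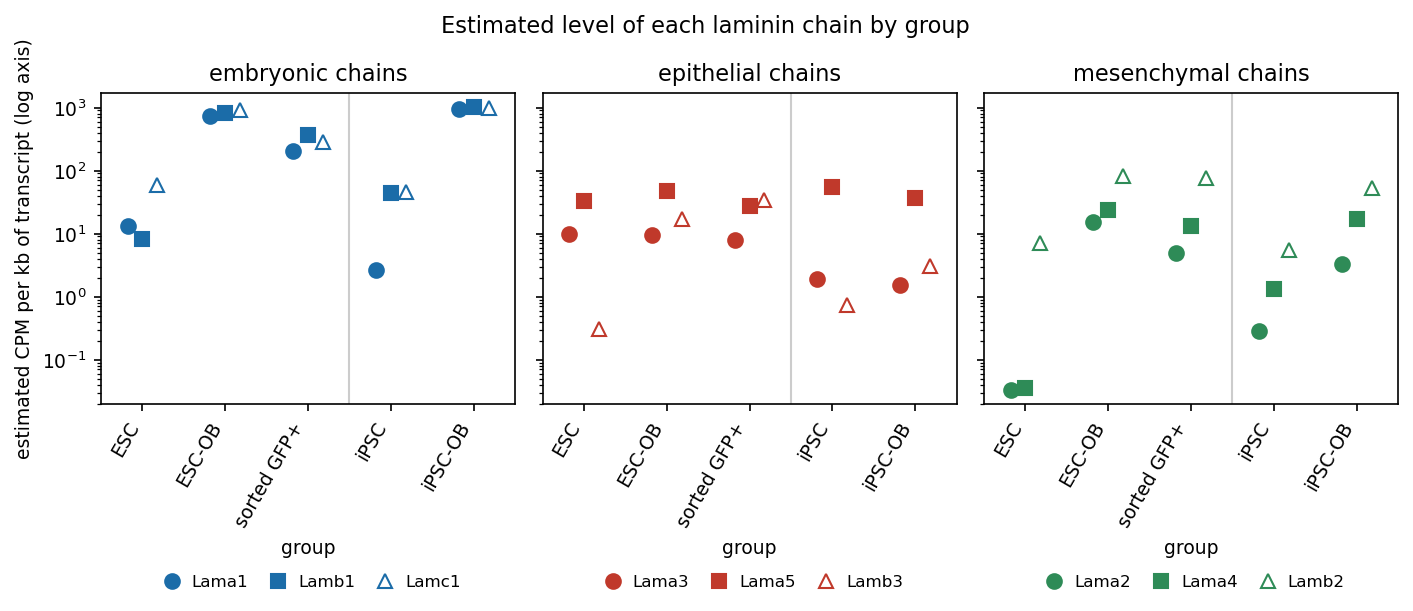
Estimated level of each laminin chain (CPM per kilobase of transcript, log axis) in the 5 groups, with 1 panel for each group of 3 chains; a point is a group estimate with no error, and the grey line separates the 2 tables, which were normalised separately. The 3 embryonic chains come together near the top in ESC-OB and iPSC-OB, while Lama3 and Lama5 change least on each side of the grey line. Lama3 is lower in the iPSC groups (1.88 and 1.56) than in the ESC groups (9.70, 9.45 and 7.80).

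A chain was called when the adjusted p of the authors' deposited table (Benjamini-Hochberg, BH, over the whole table) was under 0.05. In ESC-OB against ESC, 8 of 9 chains rose, 0 fell and Lama3 did not pass, beside 38.6% of all tested genes that rose, 31.0% that fell and 69.6% called either way. In sorted ESC-OB GFP+ against ESC, 7 chains rose, Lama5 fell (0.14 against genes of like transcript length) and Lama3 did not pass, beside 39.1%, 32.4% and 71.5% of genes. In iPSC-OB against iPSC, 7 rose, Lama5 fell and Lama3 did not pass, beside 26.1%, 23.1% and 49.2%. The median log2 change of the 9 chains was 5.69, 3.79 and 3.35 in the authors' deposited tables, in that order, where the median of all genes was 0.22, 0.33 and 0.17. The calls of Lama5 in both ESC comparisons did not hold on other scales, as given below with its values. Being called was common for any gene here, and the size of the change is the larger contrast with the background.

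**Figure D2:**
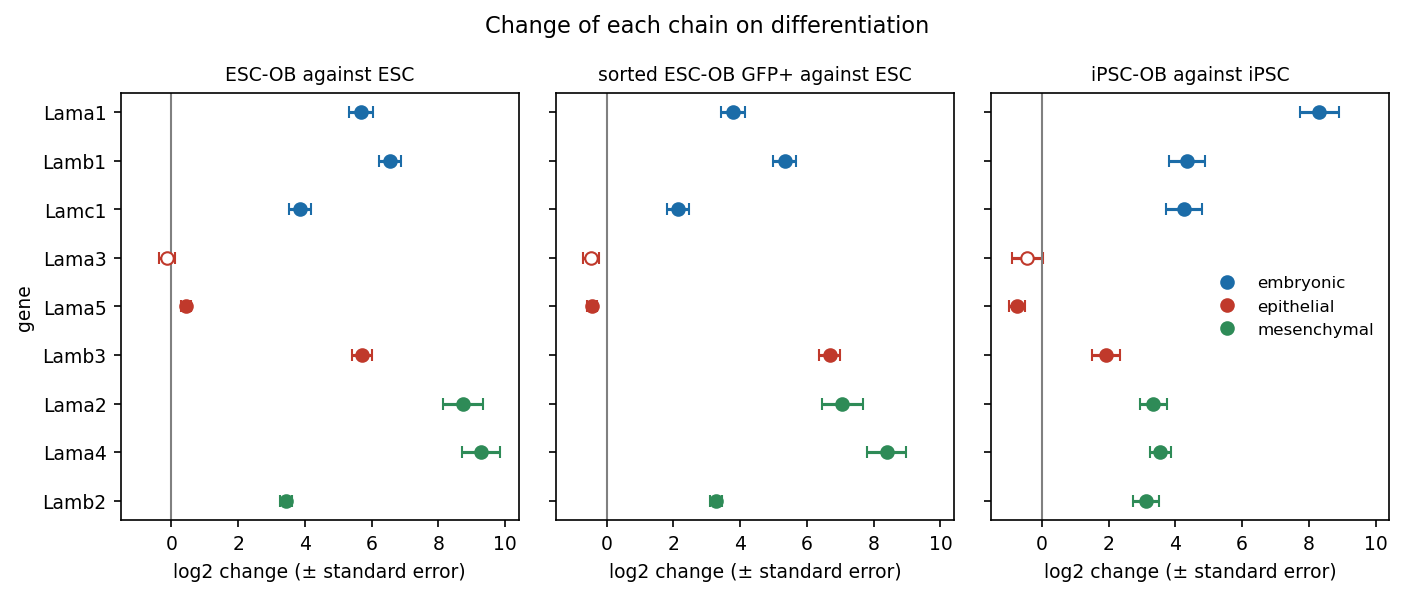
Log2 change of the 9 chains (x axis, in log2 units, bars ± SE) in the 3 deposited comparisons; filled points passed an adjusted p of 0.05 and open points did not. The embryonic and mesenchymal chains and Lamb3 lie to the right of 0 in each panel, and Lama3 is the open point in each.

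The embryonic chains had the highest estimated levels of the 9 in every differentiated group, at nearly equal levels per length in ESC-OB and iPSC-OB. Lama1, the α chain of the embryonic trimer, was estimated at 13.1 CPM per kb in ESC, 724 in ESC-OB and 202 in sorted cells, and at 2.66 in iPSC and 946 in iPSC-OB. Lamb1, its β partner, was at 8.21, 819 and 370 in the ESC groups and at 44.3 and 1014 in the iPSC groups. Lamc1, the γ chain that most laminins use, was at 58.9, 915 and 288, and at 46.1 and 990. So the 3 chains, which in ESC differed several-fold with Lamc1 highest, lay within a narrow range in ESC-OB (724 to 915 CPM per kb) and in iPSC-OB (946 to 1014), and a wider one in sorted cells (202 to 370). The authors' deposited tables gave Lama1 log2 changes of 5.69 ± 0.36 in ESC-OB (SE; BH adjusted p = 5.70e-56), 3.79 ± 0.36 in sorted cells (1.09e-25) and 8.32 ± 0.58 in iPSC-OB (3.71e-44). For Lamb1 the authors' deposited tables gave 6.54 ± 0.33 (BH adjusted p = 1.22e-83), 5.33 ± 0.33 (2.91e-56) and 4.36 ± 0.54 (1.73e-14). Lamc1, which started highest, had log2 changes of 3.86 ± 0.32 (BH adjusted p = 3.70e-32), 2.13 ± 0.32 (9.75e-11) and 4.27 ± 0.54 (2.53e-14) in the authors' deposited tables. All 3 rose in each comparison, and the errors of the log2 changes are wide for genes this abundant. Among 79 genes with a base mean of at least 10000 in the ESC fit the median SE was 0.17, and 82.3% to 89.9% of these genes had a smaller SE than Lamc1, Lamb1 and Lama1. In the iPSC table (116 such genes, median SE 0.18) the shares were 92.2% to 98.3%. At like counts a larger SE reflects a wider spread between libraries of a group, and the files used here do not show which libraries differed.

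The epithelial chains did not move together. Lama5, the α chain of the laminins that surround pluripotent cells and epithelia, was estimated at 32.7 CPM per kb in ESC, 47.2 in ESC-OB, 27.0 in sorted cells, 55.4 in iPSC and 37.1 in iPSC-OB, the narrowest range of any called chain. In the authors' deposited tables Lama5 rose in ESC-OB by 0.43 ± 0.15 on the log2 scale (BH adjusted p = 0.00749), and its log2 change was -0.44 ± 0.15 in sorted cells (0.00584) and -0.74 ± 0.23 in iPSC-OB (0.00458). These Lama5 changes depend on the scaling: measured against the median gene, which itself moved by 0.19 in ESC-OB, the rise was 0.24 (adjusted p = 0.149). Against genes of like transcript length the Lama5 change was 0.00 in ESC-OB and 0.14 in sorted cells (adjusted p = 0.424). Lama5 was itself the median of the 781 genes of 8 kb and longer in ESC-OB. Its 0.00 there is therefore exact, and a p for it says nothing more. The fall in iPSC-OB was called on both scales, at -0.80 (adjusted p = 0.00198) against the median gene and -1.01 (adjusted p = 6.80e-05) against genes of like length. Lama3, an α chain of skin and other lining epithelia, was estimated at 9.70, 9.45 and 7.80 CPM per kb in the ESC groups and at 1.88 and 1.56 in iPSC and iPSC-OB. Its log2 change in the authors' deposited tables was -0.14 ± 0.24 (BH adjusted p = 0.607), -0.47 ± 0.23 (0.0595) and -0.43 ± 0.47 (0.466), and it was called in none. Lama3 is called lower in sorted cells against the median gene (-0.68, adjusted p = 0.00570), lower in ESC-OB against genes of like length (-0.57, adjusted p = 0.0248) and not in sorted cells on that second scale (0.10, adjusted p = 0.722). Lamb3, which in the skin trimer pairs with Lama3, behaved differently from both: it was estimated at 0.303 CPM per kb in ESC, 17.0 in ESC-OB, 34.7 in sorted cells, 0.733 in iPSC and 3.10 in iPSC-OB. Lamb3 rose by 5.71 ± 0.31 (BH adjusted p = 2.05e-75), 6.68 ± 0.31 (5.34e-104) and 1.92 ± 0.41 (1.45e-05) in the authors' deposited tables. Of the 9 chains, Lamb3 was the only one whose estimated level was higher in sorted cells than in the unsorted culture. The median of the epithelial chains is therefore no guide to its members: at 0.43, -0.44 and -0.43 it was the value of Lama5 or Lama3, and without Lama5 it became 2.79, 3.10 and 0.75.

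The mesenchymal chains rose in each comparison, and Lama2 and Lama4 had the lowest estimated levels of the 9 in ESC. Lama2, the α chain of muscle and peripheral nerve basement membranes, was estimated at 0.0332 CPM per kb in ESC, 15.2 in ESC-OB and 4.97 in sorted cells, and at 0.289 in iPSC and 3.28 in iPSC-OB. Lama4, the α chain of vessel walls and many mesenchymal cells, was at 0.0357, 23.7 and 13.4, and at 1.31 and 17.2. In ESC these levels rest on 3.83 (Lama2) and 2.59 (Lama4) normalised counts per library, above the floor of 1 but few, and all levels of these chains stayed far below those of the embryonic chains. Lama2 rose by 8.73 ± 0.60 (BH adjusted p = 2.75e-46), 7.06 ± 0.60 (7.20e-31) and 3.35 ± 0.41 (6.55e-15) in the authors' deposited tables. The authors' deposited tables gave Lama4 rises of 9.27 ± 0.58 (BH adjusted p = 1.30e-55), 8.39 ± 0.58 (6.01e-46) and 3.55 ± 0.31 (2.51e-29). Its log2 change was the largest of the 9 in both ESC comparisons. Lamb2, a β chain of muscle, kidney and vessel laminins, was estimated at 7.10, 82.2 and 76.8 CPM per kb in the ESC groups and at 5.50 and 53.5 in the iPSC groups, so it was already read in stem cells. Lamb2 rose by 3.43 ± 0.19 (BH adjusted p = 5.13e-72), 3.28 ± 0.19 (3.76e-66) and 3.12 ± 0.38 (5.32e-15) in the authors' deposited tables, the most even of the rising chains across the comparisons.

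Set out as shares of the α and β families, the leading α chain was Lama5 in stem cells and Lama1 after differentiation. Lama5 made up 58.9% of summed α chain level (CPM per kb) in ESC and 90.0% in iPSC, with Lama1 at 23.6% and 4.32% and Lama3 at 17.4% in ESC. In ESC-OB the order was Lama1 88.3%, Lama5 5.76% and Lama4 2.89%, and in iPSC-OB Lama1 held 94.1% and Lama5 3.69%. Sorted cells kept Lama1 at 79.2%, with Lama5 at 10.6% and Lama4 at 5.23%. Among β chains, ESC held Lamb1 and Lamb2 at 52.6% and 45.5%, and Lamb1 held 89.2% in ESC-OB, 76.8% in sorted cells, 87.7% in iPSC and 94.7% in iPSC-OB. Lamb3 had its highest share of β chains, 7.21%, in sorted cells. These shares are group estimates without an error, and no difference between them was tested.

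**Figure D3:**
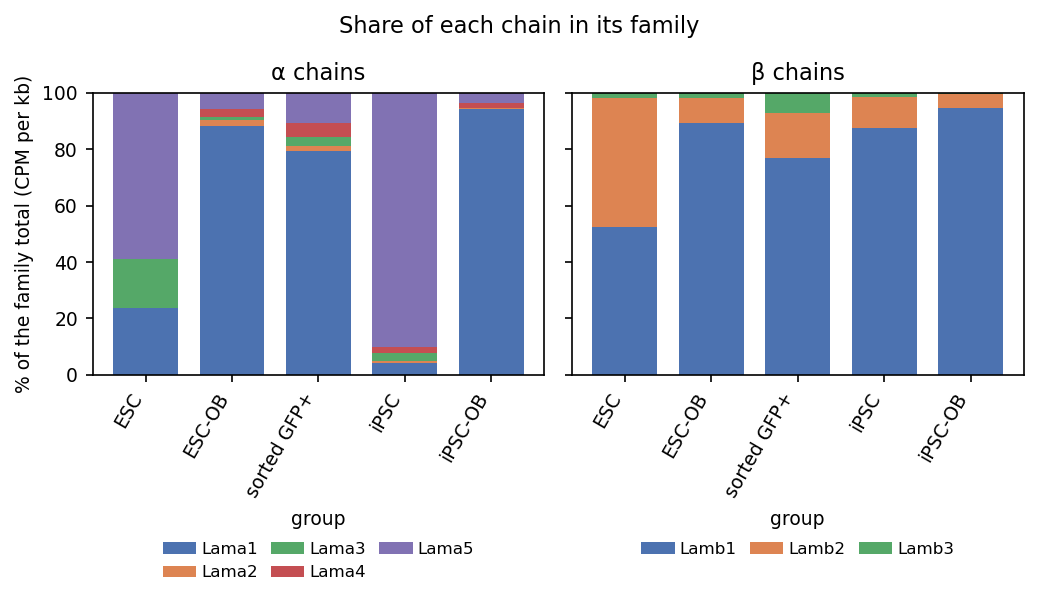
Share of each chain in the summed level of its family (% of CPM per kb) in the 5 groups, for α and β chains, from group estimates with no error. Lama5 fills most of the α bar in ESC (58.9%) and iPSC (90.0%), and Lama1 in ESC-OB, sorted cells and iPSC-OB (88.3%, 79.2% and 94.1%).

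Chains that can share a trimer or replace each other were set side by side by the difference of their log2 changes, which is described and was not tested. The error given adds the errors of both chains as if they were independent. Both were read in the same libraries, so the true error of the difference is not known. Lamb1 and Lamc1 were apart by 2.68 ± 0.46 in ESC-OB and 3.201 ± 0.46 in sorted cells, and by only 0.09 ± 0.76 in iPSC-OB, in the authors' deposited tables. Lama1 rose less than Lamb1 in ESC-OB (difference -0.85 ± 0.49, SE, from the authors' deposited table) and in sorted cells (-1.54 ± 0.49), but more in iPSC-OB (3.96 ± 0.80), where it started lower. Lama1 and Lama5, alternative α chains for the same β and γ chains, were apart by 5.26 ± 0.39 in ESC-OB, 4.23 ± 0.39 in sorted cells and 9.05 ± 0.63 in iPSC-OB on the log2 scale of the authors' deposited tables. Lama3 and Lamb3 were apart by -5.85 ± 0.39, -7.16 ± 0.39 and -2.35 ± 0.62, again from the authors' deposited tables. Lamb3 was thus read in amounts that Lama3 did not follow. Lama2 and Lama4 were within 1 SE of each other in ESC-OB (difference -0.54 ± 0.84) and iPSC-OB (-0.21 ± 0.51) in the authors' deposited tables, and further apart in sorted cells (-1.33 ± 0.84). Lamc3, a γ chain known from the retina, rose from near 0 by 7.25 ± 0.75, 7.31 ± 0.75 and 2.73 ± 0.99 in the authors' deposited tables. Its level reached only 5.34 CPM per kb in ESC-OB and 5.81 in sorted cells.

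The next comparison asks how the change in sorted cells, the cells that express the osteoblast reporter, differs from the change in the whole culture. Both changes use the same ESC libraries, so their difference is that of sorted against unsorted cells, and its error, which adds both errors, is too large rather than too small. With a normal test and BH adjustment over 19781 genes, 0 chains were higher in the sorted change, 4 were lower and 5 did not pass, beside 10.7% of genes higher, 12.1% lower and 22.7% either way. The embryonic chains were lower: Lama1 by a log2 difference of -1.90 ± 0.50 (SE; adjusted p = 0.00138), Lamc1 by -1.73 ± 0.45 (0.00123) and Lamb1 by -1.21 ± 0.47 (0.0473). Lama5 was lower by -0.86 ± 0.21 (BH adjusted p = 4.71e-04). Lamb3 had a difference of 0.97 ± 0.43 (BH adjusted p = 0.0960, unadjusted 95% interval 0.12 to 1.82). The mesenchymal chains did not pass: Lama2 had a difference of -1.67 (95% interval -3.34 to 0.00), Lama4 of -0.88 (-2.50 to 0.73) and Lamb2 of -0.16 (-0.68 to 0.37), and Lama3 had -0.34 (-0.99 to 0.32). Transcript length moved with this comparison in all genes, and laminin transcripts are long. Over 13655 genes with a length, 92.6% of the 14749 with a base mean of at least 10, the median difference went from 0.67 for transcripts under 1 kb to -0.67 for 5 to 8 kb and -1.17 for 8 kb and longer. Lama1, Lama2, Lama3 and Lama5 have transcripts of 9.53 to 11.4 kb, Lamc1, Lama4, Lamb1 and Lamb2 of 5.63 to 7.62 kb and Lamb3 of 4.87 kb. Measured against genes of like length, an alternative chosen after seeing the data, 0 of the 9 differences was called: Lama1 was at -0.72 (BH adjusted p = 0.434), Lamc1 at -1.06 (0.104), Lamb1 at -0.54 (0.587) and Lamb3 at 1.03 (0.0960). Lama5 turned to 0.31 (BH adjusted p = 0.432), Lama3 to 0.84 (0.0699) and Lamb2 to 0.51 (0.219). The lower embryonic chains in sorted cells are thus called on the deposited scale and not once length is taken into account. The labels give an ultra-low-input kit for scarce RNA without naming the samples, and its part in this comparison was not tested. The 7 rises against ESC were called on both scales.

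The rises in iPSC-OB and ESC-OB come from tables that share no sample, so their difference can be tested directly. With the same test over 18632 genes, 1 chain changed more upwards in iPSC-OB, 5 changed less and 3 did not pass, beside 11.0% of genes higher, 17.2% lower and 28.2% either way. Lama1 rose more in iPSC-OB, by 2.63 ± 0.68 on the log2 scale (SE; BH adjusted p = 8.57e-04). Lama4, Lama2 and Lamb3 rose less, with differences of -5.72 ± 0.66 (BH adjusted p = 3.17e-16), -5.39 ± 0.73 (7.14e-12) and -3.79 ± 0.51 (7.40e-12). Lamb1 had a difference of -2.18 ± 0.64 (BH adjusted p = 0.00369) and Lama5 of -1.16 ± 0.28 (2.57e-04). Lamc1 (0.41, 95% interval -0.81 to 1.63), Lamb2 (-0.31, -1.14 to 0.53) and Lama3 (-0.29, -1.32 to 0.74) did not pass. Set side by side, both the starting and the end levels of these chains differed. The starting level was higher in iPSC than in ESC for Lama2, Lama4, Lamb1, Lamb3 and Lama5 (0.289 against 0.0332, 1.31 against 0.0357, 44.3 against 8.21, 0.733 against 0.303 and 55.4 against 32.7 CPM per kb), while for Lama1 it was lower (2.66 against 13.1). The end levels of the 3 embryonic chains in ESC-OB and iPSC-OB were close by comparison (724 and 946 for Lama1, 819 and 1014 for Lamb1, 915 and 990 for Lamc1). Lama2, Lamb3, Lama4 and Lama5 ended lower in iPSC-OB (3.28, 3.10, 17.2 and 37.1 CPM per kb) than in ESC-OB (15.2, 17.0, 23.7 and 47.2). Most genes of the muscle and pericyte, fibroblast and osteoblast lists described below were also read at higher levels in iPSC than in ESC. Among them were Col1a1 at 349 against 10.3 CPM, Col1a2 at 267 against 0.669 and the smooth muscle gene Acta2 at 147 against 0.376. The fibroblast markers summed to 473 against 255 CPM, most of it Vim (417 against 248). The others of these lists were level or lower in iPSC. Lum was at 0.242 against 0.233 CPM, Des at 6.53 against 12.8 and Alpl at 127 against 308. Dmp1 was at 0.240 against 1.91 CPM and Myog at 0.203 against 0.382. The part of these cells or genes in the smaller rises of Lama2 and Lama4 was not tested. Transcript length hardly moved with this difference (medians between -0.16 and 0.08 in all length bins), and the same 6 chains were called against genes of like length.

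**Figure D4:**
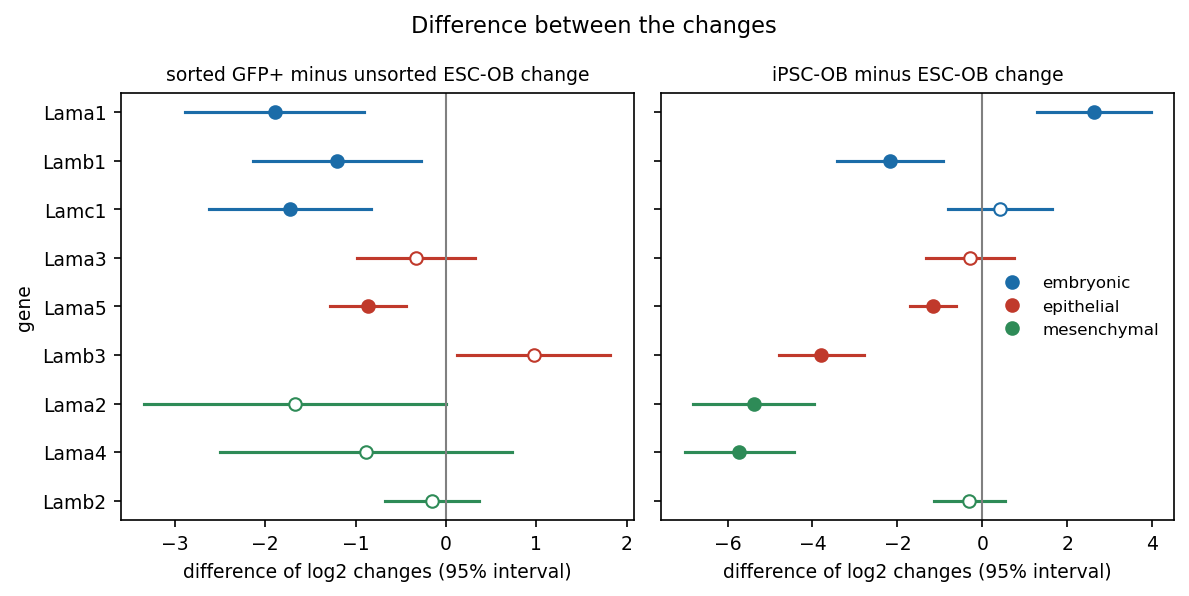
Differences between log2 changes of the 9 chains (x axis, log2 units, points with 95% intervals; filled where the adjusted p was under 0.05): sorted against unsorted ESC-OB on the left, iPSC-OB against ESC-OB on the right. On the left the 3 embryonic chains and Lama5 lie below 0 and Lamb3 above it on the deposited scale, where against genes of like length Lama5 is at 0.31; on the right Lama1 lies above 0 and Lama2, Lama4 and Lamb3 lie furthest below it.

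Laminin receptors, the surface proteins that bind the chains, had smaller median changes than the chains. Of 12 receptor genes, 10 rose and 1 fell in ESC-OB (median log2 change 1.87), 10 rose and 2 fell in sorted cells (1.30), and 7 rose and 1 fell in iPSC-OB (0.91) in the authors' deposited tables. Among all genes 38.6%, 39.1% and 26.1% rose, and 69.6%, 71.5% and 49.2% were called either way. Itga7, the integrin α chain of muscle that binds α1 and α2 laminins, rose most, by 4.80 ± 0.37, 4.44 ± 0.37 and 2.26 ± 0.38 in the authors' deposited tables. Itgb1, the β chain of most laminin-binding integrins, rose by 2.50 ± 0.13, 2.52 ± 0.13 and 0.93 ± 0.15 in the authors' deposited tables. Itgb4, the β chain of hemidesmosomes, rose by 4.18 ± 0.20, 4.27 ± 0.20 and 2.02 ± 0.45 there. Dag1, which encodes dystroglycan, rose by 0.92 ± 0.13 and 0.76 ± 0.13 in the ESC comparisons and had -0.12 ± 0.16 (BH adjusted p = 0.555) in iPSC-OB in the authors' deposited tables. The largest fall was that of Rpsa, a ribosomal protein also described as a laminin receptor, at -1.22 ± 0.25, -2.67 ± 0.25 and -0.75 ± 0.15 in the authors' deposited tables. Of 8 enzymes that glycosylate dystroglycan for laminin binding, 5, 5 and 4 rose and 1, 2 and 0 fell in the authors' deposited tables, with medians of 0.92, 0.47 and 0.77. So 6, 7 and 4 of the 8 were called, beside these same shares of all genes.

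Basement membrane partners rose with the chains, led by type IV collagen and netrin-4. Of 15 partner genes, 14 rose and 1 fell in ESC-OB (median log2 change 4.29), 10 rose and 3 fell in sorted cells (4.19), and 11 rose and 1 fell in iPSC-OB (2.45) in the authors' deposited tables. Among all genes 38.6%, 39.1% and 26.1% rose, and 69.6%, 71.5% and 49.2% were called either way. Ntn4, the netrin that binds laminin γ chains, rose by 9.71 ± 0.80 in ESC-OB from almost no reads, and by 9.54 ± 0.80 in sorted cells and 5.00 ± 0.48 in iPSC-OB in the authors' deposited tables. Col4a1 and Col4a2, the type IV collagen chains found in all basement membranes, rose by 9.62 ± 0.30 and 9.62 ± 0.35 in ESC-OB, 8.82 ± 0.30 and 8.32 ± 0.35 in sorted cells, and 7.09 ± 0.56 and 7.18 ± 0.58 in iPSC-OB in the authors' deposited tables. The nidogens, linkers of the laminin and collagen networks, had smaller changes: Nid1 rose by 2.14 ± 0.22 in ESC-OB and 4.22 ± 0.56 in iPSC-OB, with 0.40 ± 0.22 in sorted cells (BH adjusted p = 0.0885) in the authors' deposited tables. Nid2 rose by 0.76 ± 0.30 in ESC-OB and did not pass in sorted cells (0.46 ± 0.30, BH adjusted p = 0.169) or iPSC-OB (1.02 ± 0.55, 0.116) in the authors' deposited tables. Hspg2, which encodes perlecan and has a long transcript, rose by 0.75 ± 0.13 in ESC-OB and 2.04 ± 0.45 in iPSC-OB and had a log2 change of -2.28 ± 0.13 in sorted cells in the authors' deposited tables. Col18a1, the precursor of endostatin, fell in each, at -1.50 ± 0.11, -1.12 ± 0.10 and -1.79 ± 0.50 in the authors' deposited tables. Of 7 hemidesmosome and anchoring genes, the structures that the trimer with Lamb3 attaches to, 6, 5 and 5 rose and 1, 2 and 0 fell in the authors' deposited tables (medians 2.23, 0.91 and 1.06), so 7, 7 and 5 of 7 were called. The shares of all genes called either way were again 69.6%, 71.5% and 49.2%. Col17a1, a transmembrane collagen of hemidesmosomes, rose most of these in each, by 5.07 ± 0.36, 5.63 ± 0.36 and 3.21 ± 0.67 in the authors' deposited tables.

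Markers of cell types known for these laminins were read in the same groups. Primitive and parietal endoderm markers, the cells best known for embryonic laminin and type IV collagen, rose in 10 of 10 cases in each comparison (medians 8.39, 7.84 and 5.32 in the authors' deposited tables). Among all tested genes 38.6%, 39.1% and 26.1% rose, and 69.6%, 71.5% and 49.2% were called either way. The summed level of these markers went from 12.3 CPM in ESC to 1743 in ESC-OB and 1977 in sorted cells, and from 53.0 in iPSC to 1591 in iPSC-OB. Gata4 and Gata6, transcription factors of endoderm and heart, rose by 6.27 ± 0.38 and 8.80 ± 0.48 in ESC-OB in the authors' deposited tables. Epithelial markers, of cells that carry the Lamb3 trimer, rose in 9 of 11 cases in ESC-OB, 10 in sorted cells and 6 in iPSC-OB and fell in 1, 1 and 2 in the authors' deposited tables, beside the same shares of all genes called. Their summed level went from 559 CPM in ESC to 2567 in ESC-OB and 6152 in sorted cells, and from 1311 in iPSC to 1772 in iPSC-OB. The order of the groups was the same as for Lamb3, and the summed endoderm and osteoblast markers had that order too. The part of any of these cells in the Lamb3 values was not tested. Krt5 and Krt14, keratins of basal epithelium, rose by 10.51 ± 0.70 and 10.42 ± 0.76 in ESC-OB in the authors' deposited tables. Cdh1, the adhesion protein that both epithelia and pluripotent cells carry, fell in each, at -1.23 ± 0.24, -0.68 ± 0.24 and -2.10 ± 0.40, and Epcam fell in iPSC-OB, at -1.44 ± 0.17, in the authors' deposited tables. Muscle and pericyte markers summed to 21.6, 572 and 1104 CPM in the ESC groups and 359 and 882 in the iPSC groups, with Myod1, which defines skeletal muscle precursors, near 0 in all groups (0.0321 CPM in ESC, 0.0893 in ESC-OB, 0.0240 in sorted cells, 0.153 in iPSC and 0.184 in iPSC-OB) and called in none. Endothelial markers were at 123, 269 and 143 CPM and at 47.8 and 161. Most of the ESC sum was Pecam1 (110 CPM), which fell in each comparison, while 7, 6 and 4 of the 8 markers rose in the authors' deposited tables, among them Cdh5 by 9.41 ± 0.83 in ESC-OB. Fibroblast markers were at 255, 2007 and 1940 and at 473 and 2042, with Vim holding most of the sum in ESC (248 CPM) and iPSC (417 CPM). Osteoblast markers, the check of the label, summed to 322, 5077 and 10927 CPM in ESC, ESC-OB and sorted cells and to 750 and 2429 in iPSC and iPSC-OB, with 5, 7 and 6 of 8 risen in the authors' deposited tables. Col1a1 and Col1a2 held most of the sum in ESC-OB (2587 and 2434 CPM) and in sorted cells (5702 and 4572 CPM). The cells were sorted on a reporter driven by part of the type I collagen promoter, so the sorted sum is no independent check of the label. Bglap, another of these markers, stayed at 0.830 CPM in ESC-OB, 0.536 in sorted cells and 1.02 in iPSC-OB. Alpl, the alkaline phosphatase that osteoblasts and stem cells both express, fell in each, at -4.93 ± 0.69, -3.02 ± 0.69 and -3.35 ± 0.61, in the authors' deposited tables. Sp7, the osteoblast transcription factor, rose in sorted cells by 3.29 ± 1.05 and did not pass in ESC-OB (1.69 ± 1.09, BH adjusted p = 0.155) or iPSC-OB (-0.05 ± 1.13, 0.977) in the authors' deposited tables. These libraries thus held transcripts of several laminin-producing cell types, sorted cells included, and which cells held each chain was not tested.

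The genes whose 3 log2 changes lay nearest to those of a chain were sought among 9816 genes with a base mean of at least 100 in both fits, by Euclidean distance on the log2 scale. Nearest to Lama1 were Cubn, a receptor of visceral endoderm and kidney, at a distance of 1.12, Nxf7 at 1.48 and Vnn1 at 1.74. Nearest to Lamb3 were Ier3 (0.21), Gas1 (0.24) and Npr2 (0.28). Nearest to Lama4 were Gpm6a (0.33), Clca1 (0.46) and Gata6 (0.63). Even its nearest gene was over 1 log2 unit from Lama1, while Lamb3 and Lama4 had neighbours at 0.33 or less. The 3 distances are taken over 3 comparisons, of which both ESC ones share libraries.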

How the data were processed

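RNA sequencing was done on 22 samples in 8 groups, and 13 samples in 5 groups enter the comparisons used here. The other 9 samples were not analysed here. STAR 2.4.2a, R 3.2.2, DESeq2 and the genome build mm9 are listed in the submitters' processing notes without roles. Per the file headers, the authors deposited for each gene a base mean (a signal: counts divided by size factors, averaged over the libraries of a fit), a log2 fold change and its error, a test score, and raw and adjusted p-values. Columns of values per sample numbered 0. Both ESC tables have the same base means and share ESC libraries. The direction of the changes was read from Pou5f1, Nanog and Esrrb, negative in all 3 log2 columns that the authors deposited, so a positive value means higher in differentiated cells. Adjusted p-values were taken from the authors' tables.

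From these tables, group levels were solved with the labelled library numbers and divided by the summed level and by transcript length (GENCODE M21, GRCm38, used for lengths only). The gene Rn45s was left out of the summed level. Differences between changes were tested with a normal test on summed squared errors with Benjamini-Hochberg adjustment over all genes. The calculation was run on simulated data with independent normal errors of the size that the test assumes. That run does not cover the shared ESC libraries or the trend with transcript length. Depths were decoded from base means under 1 (2040 of 2040 and 1456 of 1456 explained, tolerance 3e-07). Python 3.11.15, pandas 2.3.3, numpy 2.4.6, scipy 1.17.1 and matplotlib 3.10.9 were used. The 9 chains, their grouping and the related lists were chosen with earlier results of these data known. Genes named are all 9 chains, Lamc3, the called gene with the largest rise and fall in a related list, markers that define a cell type and the 3 genes nearest to Lama1, Lamb3 and Lama4. Itgb1, Itgb4, Dag1, Nid1, Nid2, Hspg2, Col4a1, Col4a2, Col1a2, Lum, Des, Alpl, Bglap and Sp7 were named for their known roles after their values were seen. Dmp1, Myog and Vim were named for their levels, also after their values were seen. Alternatives tried were a stricter threshold, a minimum change, other low-count filters, re-centring, another error for the shared ESC libraries, 3 iPSC libraries and, chosen after seeing the data, re-centring on genes of like transcript length.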

Additional observations from a re-analysis of the deposited data

Results flagged for a closer look

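The change on differentiation differed between iPSC-OB and ESC-OB for 6 of the 9 chains, each by a test of the difference itself (normal test, Benjamini-Hochberg adjusted over all genes in both tables). Of all 18632 genes tested this way, 28.2% were called, 11.0% higher and 17.2% lower in iPSC-OB. Lama1 rose more in the iPSC cultures, by 2.63 on the log2 scale. The other differences were negative: -5.72 for Lama4, -5.39 for Lama2, -3.79 for Lamb3, -2.18 for Lamb1 and -1.16 for Lama5.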

How the results depend on the processing

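Calls of the chains were recomputed at an adjusted p of 0.01, with a change of at least 1, with other low-count filters and after re-centring. With a change of at least 1, the count of fallen chains went from 1 to 0 in sorted cells and in iPSC-OB, since the Lama5 change was small. Re-centred on the median gene, 2 chains fell in sorted cells, Lama3 and Lama5. Re-centred on genes of like transcript length (chosen after seeing the data), 1 chain fell in ESC-OB (Lama3) and 0 in sorted cells, where Lama3 turned to 0.10 and Lama5 to 0.14. On that scale 0 of 9 chains differed between sorted and unsorted cells, 0 of them lower, against 4 before, and Lama5, Lama3 and Lamb2 turned to 0.31, 0.84 and 0.51. The shared ESC variance is not known, so in its place the smaller squared error was taken out of the sum. With that error, 1 chain was higher in sorted cells (Lamb3, BH adjusted p = 0.00619), and Lama2 was also called lower (0.0189). At 0.01 the Lamb1 difference between sorted and unsorted cells was no longer called (its adjusted p was 0.0473). Without Lama5 the median of the epithelial chains was 2.79 in ESC-OB and turned to 3.10 in sorted cells and 0.75 in iPSC-OB. The counts of risen chains moved by at most 1 under every alternative run. Taking 3 iPSC libraries moved no level by more than the SE of its change. No paired analysis was possible because the deposited tables hold no values per sample, and for the same reason leaving out a replicate and another normalisation were not run. Levels of Lama2 and Lama4 in ESC rest on few reads.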
